A study of Mus musculus with 30 samples.

Results

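The genes described here are 8 enzymes, cytoskeletal regulators and membrane proteins of oligodendrocytes, the glial cells that wrap axons in myelin: Ugt8a, Sirt2, Gsn, Septin4, Car2, Qdpr, Cryab and Cd9. They were chosen by name, with earlier results of these data known. The rule took all probe sets whose only gene symbol in the platform annotation is 1 of the 8. That rule found all 8 among the 8251 genes that the MG-U74Av2 array names by 1 symbol, with 10 of its 12488 probe sets. Of the 10, 8 passed a filter on low values, 1 per gene: 98872_at (Ugt8a), 95502_at (Sirt2), 93750_at (Gsn), 94079_at (Septin4), 92642_at (Car2), 96948_at (Qdpr), 162308_f_at (Cryab) and 95661_at (Cd9). A second probe set of Septin4 and a second one of Cryab did not pass.

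The study measured hippocampal RNA of male mouse pups in 30 libraries, 1 array each. The wild-type pups and the pups heterozygous for Nf1 were the offspring of C57BL/6 mice and Nf1 heterozygotes, and both genotypes come from this cross. Nf1 encodes neurofibromin, which turns Ras off. The wild-type groups (+/+) held 3 libraries at P10 (postnatal day 10), 4 at P15 and 2 at each of P18, P20, P28 and P32. The Nf1 heterozygous groups (+/-) held 4 at P10, 4 at P15, 2 at each of P18, P20 and P28, and 1 at P32. Each library is a pool of 2 pups. Sample titles also carry a number (1 or 2) and a letter that nothing in the labels explains. Litters are not named, so the spread between libraries may be partly technical.

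Myelin forms in the hippocampus after birth. Oligodendrocyte precursors leave the cell cycle, extend processes, build large amounts of lipid-rich membrane and compact it around axons. This needs enzymes that make myelin lipids, a cytoskeleton that lets the membrane spread and then settle, and proteins that handle ions, redox cofactors and stress in a cell of high metabolic output. The 8 genes encode proteins of different kinds, and their part in these steps was not tested here.

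As a check of the tissue, 12 myelin and oligodendrocyte marker genes other than these 8 were tested. The marker lists, too, were chosen with earlier results of these data known. In wild-type maturation, the step from P10 to P28 and P32, 10 of the 12 rose and none fell, with a median log2 change of 2.89, and Mog (4.97) and Mobp (4.78), 2 proteins of the myelin sheath, led them. The summed intensity of all 15 measured markers lay between 1058 and 1478 at P10, between 3730 and 10007 at P15 and between 8209 and 10112 at P28 and P32. Cnp and Gpr37 stayed below the filter's level in every library. Of 4 precursor markers, 3 fell in wild-type maturation, among them Ptprz1 (-0.89) and Pdgfra (-0.88). The summed intensity of 12 astrocyte markers also went up, from between 6355 and 6901.5 at P10 to between 9931 and 11152 at P28 and P32, and 7 of the 11 tested rose, led by Glul (2.51). Astrocytes can hold Car2, Cryab and other RNAs of the 8, and the part of this rise in the values below was not tested. Pools of whole hippocampus cannot tell fewer cells of a type from less RNA per cell. The targeted gene did not check the labels: the Nf1 probe set was dim, at 7.36 ± 4.92 intensity units (SD) over the 15 wild-type libraries and 6.68 ± 4.31 over the 15 heterozygous ones (n = 15 each, difference within ages -0.26 on the log2 scale, two-sided permutation p = 0.512). Library 1a and library 1b of the heterozygous P18 group correlated at 0.93 across probe sets, the lowest value of any group.

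Over the whole span, 7 of the 8 genes changed in wild type, and all 7 rose. Of all 7453 probe sets tested, 38.2% changed at a limma adjusted p below 0.05, with 1344 higher and 1501 lower. In heterozygotes all 8 changed, 7 rising and Cd9 falling, where 36.5% of all probe sets changed, with 1265 higher and 1453 lower. The median of the 8 was a log2 change of 1.03 in wild type and 1.46 in heterozygotes, beside medians of -0.04 and -0.06 over all probe sets. The sizes spread widely, from an 11.3-fold rise of Gsn to the small fall of Cd9. Averaged over both genotypes, the 8 genes also reached their highest level at different ages. In 7 of them the course was an early peak and later fall, a plateau or steady rise, or a late rise. The average of Cd9 was highest at P10, the first age. In wild type alone, Cd9 was highest at P15, with a log2 mean of 8.49 against 8.39 at P10.

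**Figure D1:**
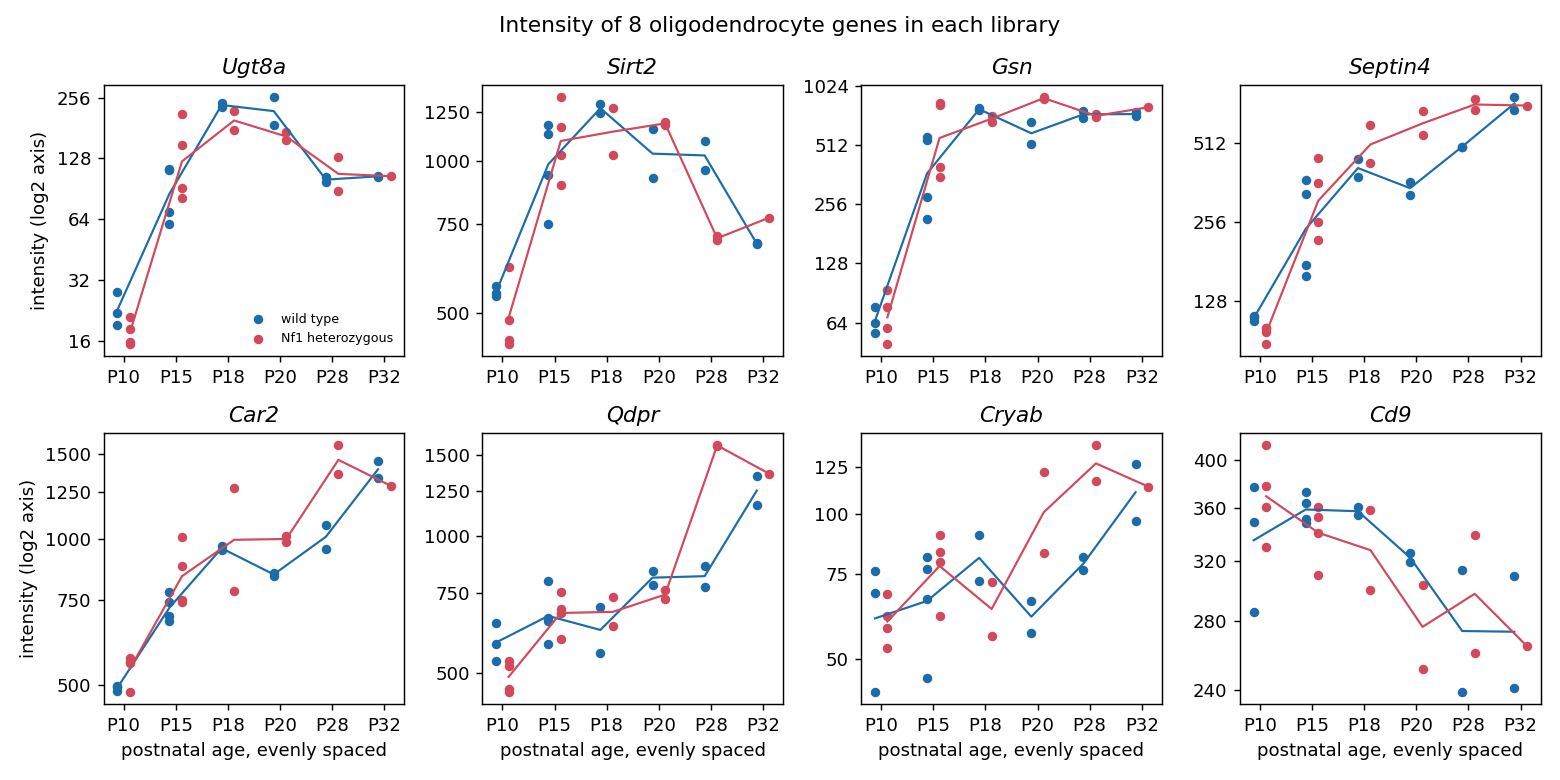
Intensity (log2 axis, in array units) of the 8 genes in each of the 30 libraries against postnatal age, with wild type in blue and Nf1 heterozygotes in red and lines through the group means of log2 values. Ugt8a and Sirt2 are highest at P18 and P20, Gsn levels off from P18, Septin4, Car2, Qdpr and Cryab are highest at P28 or P32, and Cd9 stays between 239 and 414.

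Upstream sequences of 3 genes are shown because these are the gene with the largest rise (Gsn), the gene with the late rise and the only called interaction of genotype and age (Qdpr) and the gene with no called step (Cd9). Each holds the 250 bases before an annotated start, 5′ to 3′ on the gene's strand, from RefSeq on GRCm38.p6, and 6 of the 8 genes had such an entry. The windows lie at chr2:35256109-35256358 (plus strand, the first of 3 starts of Gsn), chr5:45450230-45450479 (minus strand, the only start of Qdpr) and chr6:125494761-125495010 (minus strand, the only start of Cd9, where Gm26728 overlaps).
Gsn: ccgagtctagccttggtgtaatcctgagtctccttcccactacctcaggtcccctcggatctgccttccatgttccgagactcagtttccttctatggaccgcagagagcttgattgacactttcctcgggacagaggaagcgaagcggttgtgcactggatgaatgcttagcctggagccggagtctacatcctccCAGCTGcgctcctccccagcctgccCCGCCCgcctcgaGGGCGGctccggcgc
Qdpr: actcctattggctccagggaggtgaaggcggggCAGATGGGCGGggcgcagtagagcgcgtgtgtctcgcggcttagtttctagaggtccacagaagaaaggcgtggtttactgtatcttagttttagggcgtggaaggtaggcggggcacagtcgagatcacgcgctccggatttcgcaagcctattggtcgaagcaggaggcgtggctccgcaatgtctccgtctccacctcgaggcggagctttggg
Cd9: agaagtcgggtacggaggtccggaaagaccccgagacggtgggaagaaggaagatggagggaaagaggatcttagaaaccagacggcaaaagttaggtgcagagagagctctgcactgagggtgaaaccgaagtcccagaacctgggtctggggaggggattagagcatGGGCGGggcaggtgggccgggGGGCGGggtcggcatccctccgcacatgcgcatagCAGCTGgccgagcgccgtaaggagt
Capitals mark the letters found on either strand in a search for ACAAAG (a SOX family motif), CAGCTG and CAGATG (E-boxes), GGGCGG (an Sp family motif) and TATAAA (the TATA box). The Gsn window holds 1 CAGCTG and 2 GGGCGG, the Cd9 window also 1 CAGCTG and 2 GGGCGG, and the Qdpr window 1 CAGATG and 1 GGGCGG that overlap by 1 base. The Gsn and Cd9 windows shown thus hold the same letters in the same number. The window of the second Gsn start holds 1 CAGCTG and 1 GGGCGG, and that of the third 2 CAGATG and 1 GGGCGG. Of all 32851 RefSeq promoter windows of this length, a fraction of 0.130 hold CAGCTG, 0.144 CAGATG, 0.327 GGGCGG, 0.165 ACAAAG and 0.124 TATAAA. A match here is a description of the letters, and the arrays did not measure which start was used.

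Ugt8a, on chromosome 3 (125865272 to 125938682, GRCm38.p6), encodes the enzyme that adds galactose to ceramide and so makes galactosylceramide, the main glycolipid of myelin. Its intensity lay between 15.4 and 27.9 in the 7 libraries at P10 (median 19.1) and between 60.7 and 212 in the 8 at P15 (median 102). It lay between 157 and 257 in the 8 libraries of P18 and P20 (median 204) and between 88.7 and 130 in the 7 of P28 and P32 (median 104). Every P15 library was above every P10 library, and every P28 and P32 library was below every P18 and P20 library. Ugt8a rose 5.17-fold from P10 to P15 (log2 change 2.37, SE 0.18, limma adjusted p = 5.96e-10) and 1.97-fold from P15 to P18 and P20 (0.98, SE 0.17, adjusted p = 0.00134). It then fell by 0.96 on the log2 scale to P28 and P32 (SE 0.18, adjusted p = 0.000682). The 3 P32 libraries, at 104, 105 and 105, lay among the P28 values. At P10 Ugt8a was below the intensity of 30.8 at which the filter cut the mean. Its early fold therefore depends on the handling of low values. Under the alternative settings the log2 change from P10 to P15 lay between 1.39 and 3.13, called in each. With log2(value + 32) the whole rise in wild type was 1.29 instead of 2.18, and still called.

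Of 16 other genes of sphingolipid and long-chain fatty acid metabolism tested, 6 rose and 1 fell in wild-type maturation, with a median log2 change of 0.11. Cers2, a ceramide synthase that takes very long acyl chains, rose by 1.11 (SE 0.27), and Elovl1, which elongates such chains, fell by 1.37 (SE 0.36). In the last step, from P18 and P20 to P28 and P32, none of the 16 was called in either direction.

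Sirt2, on chromosome 7 (28766752 to 28788665), encodes an NAD-dependent deacetylase of α-tubulin and other proteins, which is found in the myelin sheath. Its intensity was 434 to 616 at P10 (median 539.9), 752 to 1339 at P15 (median 1080.3), 924 to 1299 at P18 and P20 (median 1188) and 684 to 1099 at P28 and P32 (median 711). Every P15 library was above every P10 library. Sirt2 rose from P10 to P15 (log2 change 1.002, SE 0.10, limma adjusted p = 5.52e-08) and then differed by 0.15 to P18 and P20, a change that was not called (95% confidence interval -0.04 to 0.35). It fell by 0.56 on the log2 scale to P28 and P32 (SE 0.10, adjusted p = 0.000449). The P28 and P32 libraries overlapped those of P18 and P20 only through the wild-type P28 pair, at 1099 and 959, while the other 5 libraries of P28 and P32 lay between 684 and 773. Of 4 other sirtuins and tubulin or class II deacetylases tested, Sirt3, a mitochondrial deacetylase, rose by 0.89 in wild-type maturation and Hdac6, a second tubulin deacetylase, fell by 0.49.

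Gsn, on chromosome 2 (35256359 to 35307902), encodes gelsolin, a calcium-regulated protein that severs and caps actin filaments. Its intensity lay between 49.9 and 93.7 at P10 (median 64.0) and between 214 and 840.1 at P15 (median 469). It lay between 517 and 895 at P18 and P20 (median 745) and between 703 and 796 at P28 and P32 (median 732). Gsn rose 6.78-fold from P10 to P15 (log2 change 2.76, SE 0.20, limma adjusted p = 3.75e-10), with every P15 library above every P10 library. It rose 1.61-fold to P18 and P20 (0.69, SE 0.19, adjusted p = 0.021) and differed by 0.03 from there to P28 and P32 (95% confidence interval -0.39 to 0.46). The call of the middle step was lost without wild-type P15 2d (0.62), wild-type P20 2b (0.64) or heterozygous P15 1d (0.61). It was also lost with array weights (0.63), with only the compared groups in the fit (0.69) and with the ratio of Gapdh 3' to 5' probe sets, a sign of RNA integrity, as a covariate (0.62). Of 14 other genes of its family and of actin severing, capping and monomer binding, 2 rose and 6 fell in wild-type maturation (median -0.31), with the monomer-binding proteins Tmsb10 at -1.40 (SE 0.16) and Pfn1 at -1.25 (SE 0.42) lowest.

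Septin4, on chromosome 11 (87566689 to 87590543), encodes a GTP-binding protein that assembles into filaments under membranes. Its intensity was 87.3 to 112 at P10 (median 101), 159 to 449 at P15 (median 292), 326 to 679.9 at P18 and P20 (median 438) and 498 to 769.96 at P28 and P32 (median 689.9). Every library of P15 was above every library of P10, and the later windows overlapped. Septin4 rose in all 3 steps, by 1.41 (SE 0.16, limma adjusted p = 4.37e-07), 0.75 (SE 0.15, adjusted p = 0.00357) and 0.52 on the log2 scale (SE 0.16, adjusted p = 0.0252). The last of these calls was lost with the Gapdh ratio as a term (0.40) and when any of 5 libraries was left out: heterozygous P18 1a (0.46), heterozygous P28 1a (0.51), wild-type P32 1a (0.50), wild-type P20 2a (0.50) and wild-type P18 1d (0.49). The second Septin4 probe set (161234_f_at) lay between 2.495 and 56.7 in all libraries, mostly below the filter, and showed no called change in wild type (0.13, 95% confidence interval -1.11 to 1.38) or in heterozygotes (1.64, 0.35 to 2.93, adjusted p = 0.0612 in the limma fit without a filter). Its _f_ suffix marks probes that related sequences can share. Of 7 other septin and anillin genes tested, Septin7 rose by 0.51 and Septin9 fell by 0.57 in wild-type maturation.

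Car2, on chromosome 3 (14886269 to 14900770), encodes the cytosolic carbonic anhydrase II, which interconverts carbon dioxide and bicarbonate. Its intensity was 483 to 569 at P10 (median 496), 677 to 1012 at P15 (median 745), 780.4 to 1273 at P18 and P20 (median 958) and 954 to 1563 at P28 and P32 (median 1337). Every P15 library was above every P10 library. Car2 rose by 0.59 (SE 0.08, limma adjusted p = 1.03e-05), 0.29 (SE 0.08, adjusted p = 0.0216) and 0.43 on the log2 scale (SE 0.09, adjusted p = 0.00107) in the 3 steps. The middle call was lost without heterozygous P15 1d (0.26) or heterozygous P18 1b (0.20), with only the compared groups (0.29) and with the Gapdh ratio as a term (0.19). In the heterozygous P18 group its 2 libraries differed widely, at 780.4 (1a) and 1273 (1b). Of 4 other carbonic anhydrases tested, the membrane-bound Car14 (0.94, SE 0.24) and Car12 (0.72, SE 0.16) rose in wild-type maturation. In heterozygotes Car14 rose (0.86), Car8, an isoform without catalytic activity, fell by 1.27, and Car12 stood at 0.09, not called.

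Qdpr, on chromosome 5 (45434032 to 45450229), encodes quinoid dihydropteridine reductase, which regenerates tetrahydrobiopterin, the cofactor of the aromatic amino acid hydroxylases. Its intensity was 455 to 644 at P10 (median 531), 579.7 to 797 at P15 (median 669), 554 to 839 at P18 and P20 (median 729.5) and 773 to 1577 at P28 and P32 (median 1351). It rose by 0.33 from P10 to P15 (SE 0.08, limma adjusted p = 0.00206, not called within title number 1, at 0.19), differed by 0.08 to P18 and P20 (95% confidence interval -0.07 to 0.23) and rose by 0.78 to P28 and P32 (SE 0.08, adjusted p = 6.58e-07). The last step was its largest. Of the late libraries, the wild-type P28 library 1b, at 773, lay within the range of P18 and P20, and the other 6 lay above it, from 860.3 upwards. Of 5 other genes of the tetrahydrobiopterin pathway tested, Pts, a synthesis enzyme, rose by 0.49 in wild-type maturation, and in heterozygotes the dehydratase gene Pcbd2 rose by 0.50 and the synthesis enzyme gene Spr fell by 0.59.

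Cryab, on chromosome 9 (50745951 to 50756636), encodes αB-crystallin, a small heat shock protein that holds unfolding proteins in solution. Its tested probe set (162308_f_at, with shared probes) lay between 42.7 and 76.2 at P10 (median 61.5), 45.6 and 90.6 at P15 (median 78.2), 55.7 and 122 at P18 and P20 (median 72.5) and 76.5 and 139 at P28 and P32 (median 114). The first 3 windows overlapped and their steps were not called, at 0.25 (95% confidence interval -0.05 to 0.55) and 0.07 (-0.22 to 0.35). In the last step Cryab rose by 0.50 (SE 0.15, limma adjusted p = 0.0191), a call lost without wild-type P32 1a (0.45) or heterozygous P20 1b (0.43) and with the Gapdh ratio as a term (0.39). Over the whole span it rose by 0.62 in wild type (adjusted p = 0.0227) and 1.01 in heterozygotes (adjusted p = 0.000836). The wild-type call was lost without wild-type P10 2a (0.37), wild-type P28 1b (0.60) or wild-type P32 1a (0.53) and in a fit blocked by title number (0.53). The other Cryab probe set (93279_at) read between 2.95 and 25.4 in all libraries and stood at -0.53 in wild-type maturation (95% confidence interval -1.88 to 0.82), an interval that holds the rise of the tested probe set. Of 2 other small heat shock genes tested, Hspb8 rose in wild type (0.39).

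Cd9, on chromosome 6 (125460266 to 125494760), encodes a tetraspanin, a protein that crosses the membrane 4 times and groups integrins and other partners, and is present in precursors as well as in myelin. Its intensity was 286 to 414 at P10 (median 361), 310.3 to 373 at P15 (median 352), 251 to 360.4 at P18 and P20 (median 322) and 239 to 339 at P28 and P32 (median 265). All windows overlapped their neighbours, and none of the 3 steps was called, at -0.01, -0.13 and -0.21 on the log2 scale. Over the whole span Cd9 fell by 0.40 in heterozygotes (SE 0.13, limma adjusted p = 0.0174) and stood at -0.29 in wild type (SE 0.12, adjusted p = 0.065). Both sides of the threshold were within reach of 1 library. The heterozygous call was lost without P10 1b (-0.34), P28 1b (-0.30) or P32 1a (-0.31), and the wild-type value was called without P10 2b (-0.41), P28 1a (-0.39) or P32 1a (-0.38). Of 16 other tetraspanins and partners tested, 2 rose and 3 fell in wild-type maturation (median -0.01), with Tspan4 at -1.43 and Tspan9 at -1.04 lowest.

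Read by step, the early change held most of the 8 genes and the later changes split them. From P10 to P15, 6 of the 8 rose and none fell, beside 12.5% of all probe sets called higher and 13.4% lower. From P15 to P18 and P20, 4 rose and none fell, beside 7.30% higher and 6.28% lower. From P18 and P20 to P28 and P32, 4 rose (Qdpr, Septin4, Cryab and Car2) and 2 fell (Ugt8a and Sirt2), beside 8.51% higher and 10.6% lower. In that last step 1 of the 12 myelin markers rose and none fell, with a median of 0.08. From P18 on, all libraries carry the title number 1 except the wild-type P20 pair, which carries number 2, so at P20 number and genotype cannot be told apart.

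**Figure D2:**
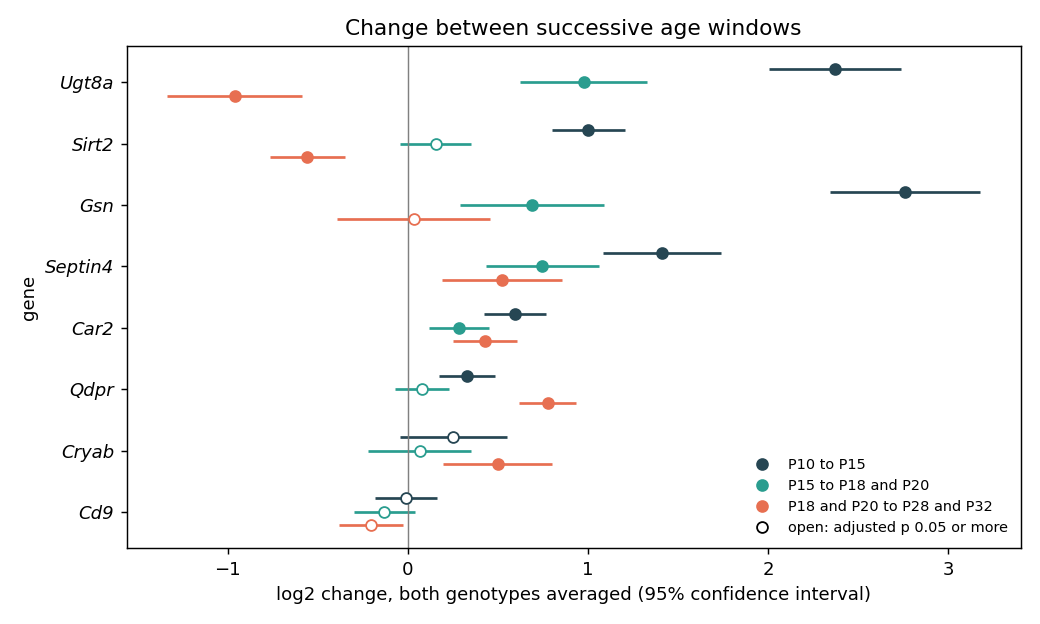
Log2 change of intensity of each gene in the 3 successive age steps, averaged over both genotypes, with the 95% confidence interval and filled points for an adjusted p below 0.05. Ugt8a and Sirt2 lie left of 0 in the last step, at -0.96 and -0.56, while Qdpr, Septin4, Cryab and Car2 lie right of it, between 0.43 and 0.78.

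The next comparison asked whether heterozygosity for Nf1 altered these genes. Averaged over all ages, none of the 8 was called by limma, nor was any of the 7453 probe sets (0%), although 2 of the 8 and 698 of all probe sets had an unadjusted p below 0.05. Those 2 were Car2 (0.19 higher in heterozygotes on the log2 scale, 95% confidence interval 0.06 to 0.32) and Septin4 (0.28, 0.03 to 0.52). The largest bound of any of the 8 intervals was 0.53, for Gsn. At P10 none of the 8 was called (0.0403% of all probe sets), with 1 at an unadjusted p below 0.05 (443 of all), and at P15 none (0%), with 2 (440 of all). At P18, P20 and P32, examined after the data were seen, none of the 8 was called either, beside 22.8%, 2.27% and 0.0537% of all probe sets. At these 3 ages 0, 2 and 0 of the 8, and 2747, 1216 and 509 of all probe sets, had an unadjusted p below 0.05. The whole rise from P10 to P28 and P32 did not differ between genotypes for any of the 8 at the threshold (0% of all probe sets, with 1 of the 8 and 508 of all at an unadjusted p below 0.05). Qdpr came nearest, rising 0.79 more in heterozygotes (SE 0.16, adjusted p = 0.0844).

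Qdpr was the exception when genotype was allowed to act differently at each age. Its interaction of genotype and age had F = 9.55 (limma adjusted p = 0.00787), the only call among the 8, beside 6.49% of all probe sets. With the Gapdh ratio as a term that share was 0.295%, and Qdpr kept its call. At P18 the log2 of this ratio was -0.05 and 0.48 in heterozygotes and -0.26 and -0.23 in wild type. Its part in the calls was not tested. At P28, examined after the data were seen, the heterozygous libraries read 1575 and 1577 and the wild-type libraries 860.3 and 773. Qdpr was 1.93-fold higher in heterozygotes there (log2 difference 0.95, SE 0.14, adjusted p = 0.00579), and it was the only 1 of the 7453 probe sets called at P28 (0.0134%). At P20 the order was the other way, with 726.5 and 760.1 in heterozygotes and 781 and 839 in wild type, a difference of -0.12 that was not called. At P10 heterozygotes also read lower, at 455 to 531 in 4 libraries against 532 to 644 in 3 of wild type. That difference was not called either, and it enters the larger rise of Qdpr in heterozygotes named above. At P32 the single heterozygous library read 1366, just above the wild-type 1166 and 1351 (0.12, not called). The P28 value thus separates 2 libraries from 2, and its call was lost when wild-type 1b (0.87, adjusted p = 0.151), heterozygous 1a (0.95, adjusted p = 0.182) or heterozygous 1b (0.95, adjusted p = 0.185) was left out. The interaction stayed called without any single library, with adjusted p between 0.000784 and 0.0333.

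By limma none of the other 7 genes was called at P28. There 4 of the 8 and 385 of all 7453 probe sets had an unadjusted p below 0.05. In Sirt2, Septin4, Car2 and Cryab the 2 libraries of each genotype did not overlap. How many of all probe sets did the same was not counted. Sirt2 read 711 and 696 in heterozygotes against 1099 and 959 in wild type (log2 difference -0.55, adjusted p = 0.777). Septin4 read 756 and 689.9 against 498 and 498 (0.54, adjusted p = 0.956). Car2 read 1563 and 1361 against 1072 and 954 (0.53, adjusted p = 0.682), and Cryab read 117 and 139 against 76.5 and 81.4 (0.69, adjusted p = 0.901). In all 4 the mean of the heterozygous P28 pair lay nearer than that of the wild-type P28 pair to the wild-type P32 mean. These 4 were picked by their lack of overlap, each mean rests on 2 libraries, and this order was not tested. Gsn, Ugt8a and Cd9 overlapped at P28. Summed markers of other cells also differed between the P28 libraries. The summed choroid plexus markers were 5076 and 399.7 in the heterozygous libraries 1a and 1b and 1373 and 1769.6 in wild type. The summed intensity of 8 endothelial markers was 782 and 780.4 in heterozygotes and 659 and 551 in wild type, and that of 15 myelin markers 10005 and 9645 against 9367 and 8209. Microglial sums were also higher in heterozygotes, at 2414 and 2669.5 against 2173 and 2237, while precursor sums were lower, at 1174 and 1120.5 against 1439 and 1358, and astrocyte sums too, at 10001 and 9931 against 10663 and 10135. None of the 12 tested myelin markers was called at P28, nor was any tested gene of the other lists named here. The part of these shifts in the values of the 5 genes was not tested.

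**Figure D3:**
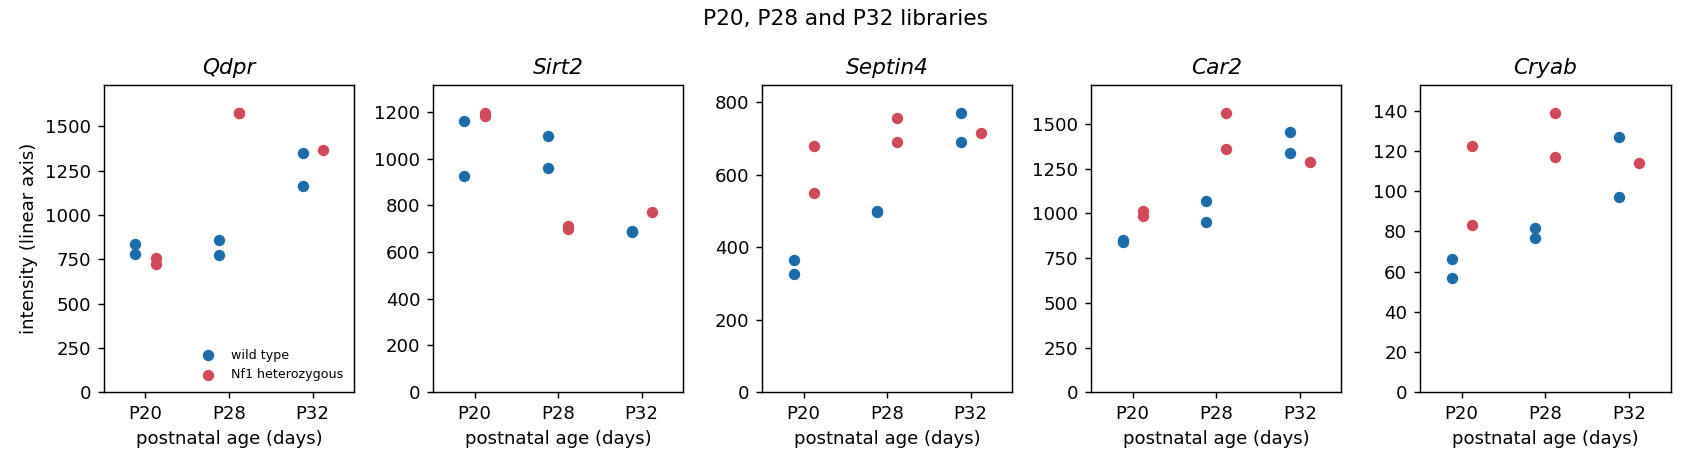
Intensity (linear axis from 0) of 5 genes in the single libraries at P20, P28 and P32, with wild type in blue and Nf1 heterozygotes in red. At P28 the 2 heterozygous libraries of Qdpr, at 1575 and 1577, lie apart from wild type at 860.3 and 773. The P28 groups of Sirt2, Septin4, Car2 and Cryab do not overlap either, and none of these was called. The share of all probe sets that do the same was not counted.

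At P15 the libraries of each genotype fell into pairs by the number in their titles. Gsn read 561 and 543 in the wild-type libraries numbered 1 and 214 and 277 in those numbered 2, while in heterozygotes it read 351 and 394 with number 1 and 818 and 840.1 with number 2. The order of the numbers was therefore opposite in the 2 genotypes. Septin4 showed the same order, with 369 and 328 against 159 and 175 in wild type and 257 and 219 against 362 and 449 in heterozygotes. Ugt8a read 113 and 114 against 60.7 and 69.3 in wild type and 81.1 and 91.8 against 149 and 212 in heterozygotes. Sirt2 read 1133 and 1181 against 752 and 938 in wild type and 899 and 1028 against 1169 and 1339 in heterozygotes. Car2 and Cryab showed the same order with smaller gaps, and the difference between the numbers was not called for them (0.49, adjusted p = 0.28, and 0.84, adjusted p = 0.272). Qdpr and Cd9 did not follow it. Within number 2, heterozygotes were higher by 1.77 (Gsn), 1.45 (Ugt8a), 1.27 (Septin4) and 0.57 (Sirt2) on the log2 scale, with limma adjusted p of 7.97e-05, 0.000813, 0.000124 and 0.0428, beside 0.845% of all probe sets called higher. Within number 1 the same 4 stood at -0.57, -0.39, -0.55 and -0.27, and none was called (0.0537% of all called higher and 0.0805% lower). The difference between the numbers was called for the same 4 genes, at 2.33 (adjusted p = 0.000191), 1.85 (0.00309), 1.82 (0.000136) and 0.84 (0.0258), beside 1.29% of all probe sets called higher. The numbers were examined after the data were seen, each value rests on 2 libraries against 2, and what the number stands for was not tested.

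Myelin markers, taken as a sum, lay in the same order as these genes at P15. Their summed intensity was 6662.5 and 6652 (number 1) and 3730 and 4863 (number 2) in wild type, and 5619 and 6043 (number 1) and 9557 and 10007 (number 2) in heterozygotes. Within number 2, 7 of 12 tested markers were higher in heterozygotes and none lower (median 1.29), and within number 1 none was called (median -0.40). Summed intensities of 13 neuron markers lay in the same crossed order, at 9568 and 9235 (number 1) and 7669 and 6571 (number 2) in wild type and at 7781 and 7743 (number 1) and 9138 and 8799.9 (number 2) in heterozygotes. Astrocyte sums did so in heterozygotes, at 7511 and 8025 (number 1) and 9341 and 8703 (number 2), and in wild type read 8761 and 8048 against 8470.0 and 8490.3. The log2 ratio of Gapdh 3' to 5' probe sets was -0.12 and -0.13 against -0.26 and -0.24 in wild type, and -0.22 and -0.08 against -0.12 and -0.15 in heterozygotes. Endothelial sums lay between 697 and 911.5 in all 8 libraries and microglial sums between 2307 and 2796. Within number 2, Cldn5 (endothelial, -0.81) and Ptprz1 (precursor, -0.71) were called lower in heterozygotes and Clu (astrocyte, 0.60) higher. Within number 1, the neuron marker Gria1 was called lower (-1.24). The median of 3 choroid plexus markers was -0.46 within number 1 and 0.75 within number 2, with none called. That of 4 precursor markers was -0.14 and -0.32. The part of these shifts in the values above was not tested. The rise from P10 to P15 was seen with either number. Within number 1, 5 of the 8 genes rose (4.64% of all probe sets higher), and within number 2, 6 did (9.07% higher). Gsn rose by 2.78 and 2.75, Ugt8a by 2.13 and 2.53, Septin4 by 1.44 and 1.38, Sirt2 by 1.12 and 0.90 and Car2 by 0.51 and 0.67 within numbers 1 and 2. Qdpr rose within number 2 (0.43) and stood at 0.19 within number 1, where it was not called.

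**Figure D4:**
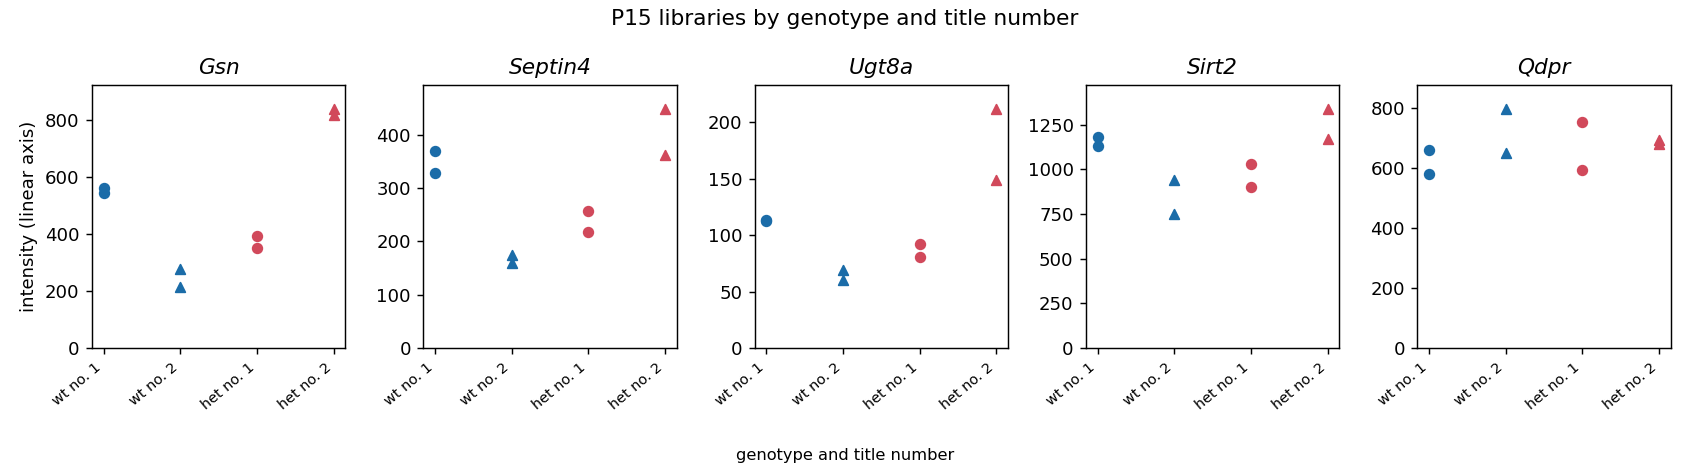
Intensity (linear axis from 0) of 5 genes in the 8 libraries at P15 by genotype (wild type blue, heterozygous red) and title number, circles for number 1 and triangles for number 2. In Gsn, Septin4, Ugt8a and Sirt2 the wild-type libraries are higher with number 1 and the heterozygous ones with number 2, while Qdpr shows no such order.

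Across the 30 libraries the 8 genes fell along a gradient rather than into 1 block. The closest pairs by Pearson's r of log2 intensity were Car2 with Septin4 (0.95), Ugt8a with Gsn (0.94) and Gsn with Septin4 (0.94). Ugt8a and Sirt2, the genes with the early peak, were at 0.88, and Qdpr and Sirt2 at 0.10. Cd9 was negative with each of the other 7, from -0.11 with Sirt2 to -0.56 with Qdpr. All points share the libraries and the course of age, so these values describe likeness only. Among all named genes tested, the one most like Gsn was Mobp (0.98), followed by Mog (0.98) and Cldn11 (0.98), and the one most like Ugt8a was also Mobp (0.96). Septin4 was most like Evi2a (0.97), and Car2 most like Mcfd2 (0.96) and Fth1 (0.96), the heavy chain of ferritin. Sirt2 was most like the metallothionein gene Mt1 (0.88), Qdpr like Nsmce4a (0.88), Cryab like Myo1d (0.83) and Cd9 like Cox6b2 (0.76). The mean standardised course of the 8 genes was most like Mobp (0.96), Cldn11 (0.96), Mal (0.96), Mog (0.95) and Aldh1a1 (0.94), followed by Erbb3, Hspa1b, Nkx6-2, Mbp and Gstm5 (0.93 to 0.94).

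**Figure D5:**
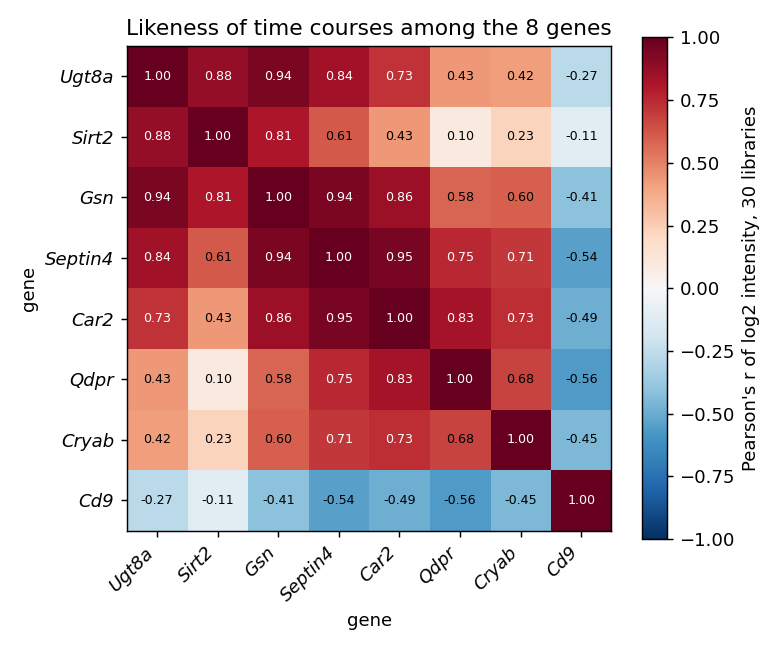
Pearson's r of log2 intensity between each pair of the 8 genes over 30 libraries, on a scale from -1 (blue) to 1 (red). Ugt8a, Sirt2, Gsn, Septin4 and Car2 are positive with each other, from 0.43 (Sirt2 with Car2) to 0.95 (Septin4 with Car2), Qdpr and Sirt2 stand at 0.10, and Cd9 is negative with every other gene.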

How the data were processed

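RNA was hybridised to 30 single-colour arrays. The authors deposited intensity values on a linear scale, and on each array their mean, without 2% at either end, was 150.1. Their software is not known here. A floor of 1 was applied before log2. Control probe sets and the lowest 40% by mean log2 (below 4.95) were left out, and limma 3.58.1 (R 4.3.3, statmod 1.5.0) was fitted to the other 7453 with a mean for each genotype and age, a trended prior and Benjamini-Hochberg adjustment over all of them. An additive model gave the genotype effect across ages. Changes were called at an adjusted p below 0.05. The number of arrays limits the precision. Symbols came from the platform annotation, updated by Entrez identifier through RefSeq on GRCm38.p6 (10817 probe sets matched), and coordinates are those of genes. The 8 genes and the lists were chosen with earlier results of these data known. Other genes were read by their brightest tested probe set. From each list the 2 called genes with the largest change were named, and Car12 in heterozygotes after its value was seen. Alternatives were a pseudocount of 32, a floor of 16, quantile normalization, no filter, a 60% filter, no trend, array weights, only the compared groups, title number or title code as a block, a Gapdh 3'/5' term and each library left out. Libraries of both genotypes with the same age and code had deviations that correlated between -0.18 and 0.13, so they were not taken as pairs. The fit was tested on simulated data.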

Additional observations from a re-analysis of the deposited data

Results flagged for a closer look

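In the heterozygous P10 group of 4, Car2 in library 2b (483.3) stood apart from the other 3 libraries, which read 554 to 569. In the same group the dim second probe set of Septin4 read 2.495 in library 2a, against 11.2 to 14.5 in the others. Both gaps passed Dixon's critical value, and 30 groups of values were examined in this way, of which about 1 in 20 is expected to pass by chance. The genotype difference of Qdpr changed with age (F = 9.551, adjusted p = 0.00787). At P15 the genotype differences within title number 2 exceeded those within title number 1 by 2.335 for Gsn, 1.845 for Ugt8a, 1.823 for Septin4 and 0.842 for Sirt2 on the log2 scale.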

How the results depend on the processing

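Of 3618 values of the 8 genes recomputed under alternatives, 3502 kept their direction and side of the threshold, 58 changed sign but were called under neither setting, 38 lost a call, 19 gained one and 1 reversed. The counts of called genes moved as follows, and the causes were not tested. The difference in maturation between genotypes had 1 call (Qdpr) with array weights and 1 with only the compared groups. The step from P15 to P18 and P20 had 2 with only the compared groups, 1 with the title code as a replicate block and 2 with a Gapdh ratio term, and between 2 (without heterozygous P15 1d) and 4 with 1 library left out. The genotype effect at P15 had 4 with the replicate block and 4 within title number 2, and the interaction had 5 with the replicate block. Over all probe sets the interaction had 484 calls in the main fit, 284 with array weights, 57 with the replicate block and 22 with a Gapdh ratio term. The effect at P28 had between 0 and 1 with 1 library left out, with 0 to 8 over all probe sets. With the replicate block Gsn fell by 0.54 from P18 and P20 to P28 and P32 (adjusted p = 0.0357). With it the calls of these values were also lost: from P15 to P18 and P20 Gsn (0.10), Car2 (0.23) and Septin4 (0.24), to P28 and P32 Septin4 (0.05), Cryab (0.24) and Car2 (0.30), from P10 to P15 Qdpr (0.12) and over the whole span in wild type Cryab (0.50), with adjusted p from 0.101 to 0.824. The labels do not say what libraries with the same code share, and whether the block or the main fit describes them better was not tested. Over all probe sets, leaving out 1 library gave 95 (wild-type P18 1d) to 1818 (heterozygous P18 1a) calls for the interaction, 616 to 1694 for the step from P15 to P18 and P20 and 978 to 2079 for the step to P28 and P32. Ugt8a at P10, Cryab and both untested probe sets lay near the filter's level, where the intensity limits precision most.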
